A study of Mus musculus with 13 samples.

Results

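The 7 genes described here belong to natural killer (NK) cells and type 1 innate lymphoid cells (ILC1), and were followed across 13 whole mouse livers. They are Ncr1, Klrb1c, Klrk1, Klrd1, Klre1, Il2rb and Eomes. The genes were chosen by name, as the rows of the count table whose Ensembl mouse gene identifier maps to these symbols, and all 7 of 7 were found among the 22048 genes of the table. All but Eomes encode surface receptors, and Eomes encodes a transcription factor. The livers formed 3 groups. There were 6 controls labelled as not depleted of hepatic stellate cells (replicates 1, 2 and 6 male, replicates 3, 4 and 5 female). There were 4 livers depleted of hepatic stellate cells, the vitamin A-storing pericytes of the sinusoid (replicate 3 male, the others female). The last 3 livers were not depleted and were taken 72 h after partial hepatectomy, in which some of the liver lobes are cut away (replicates 1 and 2 male, replicate 3 female). The labels used here give no strain, age, method of depletion or library batch, so a batch that followed the groups cannot be told apart from them.

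NK cells and ILC1 are innate lymphocytes that kill target cells or release interferon gamma without rearranged antigen receptors, and the liver sinusoids are one of the organs richest in them. Both carry NKp46 (Ncr1) and NK1.1 (Klrb1c) in mice, whereas the T-box factor Eomes is typical of circulating NK cells and is low or absent in resident liver ILC1. NKG2D (Klrk1), CD94 (Klrd1) and the shared beta chain of the IL-2 and IL-15 receptors (Il2rb) also occur on activated CD8 T cells, so these transcripts do not belong to NK cells and ILC1 alone.

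The genes were sparse in whole-liver RNA. Total counts ran from 35360991 to 51008737 per library, and a floor of 3 counts corresponded to 0.0588 to 0.0848 CPM, read counts scaled to a common library size. In controls, the summed level of all 7 genes was 1.35 to 7.08 CPM. In depleted livers the sum was 22.9 to 44.0 CPM, and in hepatectomised livers 1.6 to 4.29 CPM. The labelled depletion was checked with 10 stellate cell markers, which summed to 276 to 733 CPM in controls and to 14.4 to 62.5 CPM in depleted livers. All 10 fell in depleted livers, and depleted replicate 4 held the highest remaining sum, 62.5 CPM against 14.4, 14.7 and 18.3 CPM. Of 6 hepatocyte markers, the check of the labelled tissue, none was called different in depleted livers (edgeR), and they summed to at least 67030 CPM in every library.

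Klrb1c, Klre1, Klrd1 and Klrk1 lie on mouse chromosome 6 in the cluster of lectin-like receptor genes known as the NK gene complex (GRCm38 coordinates, GENCODE M21, all protein coding). Klrb1c (ENSMUSG00000030325.14) spans chr6:128778485-128789215 on the minus strand. Klre1 (ENSMUSG00000050241.6, chr6:129577905-129585827, plus strand), Klrd1 (ENSMUSG00000030165.14, chr6:129591782-129598775, plus strand) and Klrk1 (ENSMUSG00000030149.13, chr6:129610323-129623864, minus strand) follow each other within 46.0 kb, 788.7 kb from Klrb1c. Ncr1 (ENSMUSG00000062524.3) lies at chr7:4337724-4345164 on the plus strand, Eomes (ENSMUSG00000032446.12) at chr9:118478212-118486132 on the plus strand, and Il2rb (ENSMUSG00000068227.6) at chr15:78479256-78495271 on the minus strand. No exon of the 7 genes overlaps an exon of another gene in the table. The strand and multi-mapping settings of the counting are not given in the sources used here, so reads of Klrb1c that match its close Klrb1 relatives could have been shared between copies or dropped.

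The 250 bases before the transcription start were read for the genes with an entry in the RefSeq promoter table (GRCm38.p6). Windows were matched for 5 of the 7 genes, and none for Klrd1 and Il2rb. Klre1 and Ncr1 each have 2 starts in that table. The windows are shown because at least 1 window of Ncr1, Klrb1c, Klre1 and Klrk1, but not that of Eomes, held the core letters of the RUNX binding motif, TGTGGT or its reverse complement ACCACA, and Runx3, whose product binds that motif in NK cells, was higher in depleted livers. The same letters occurred in 14% of 32851 windows of that length. The capitals mark the motif, and each sequence is written 5′ to 3′ on the strand of its gene. For Klrb1c and Klre1, whose windows overlap annotated exons of the same gene, only the 30 bases around the match are given.
Ncr1, chr7:4337465-4337714, plus strand: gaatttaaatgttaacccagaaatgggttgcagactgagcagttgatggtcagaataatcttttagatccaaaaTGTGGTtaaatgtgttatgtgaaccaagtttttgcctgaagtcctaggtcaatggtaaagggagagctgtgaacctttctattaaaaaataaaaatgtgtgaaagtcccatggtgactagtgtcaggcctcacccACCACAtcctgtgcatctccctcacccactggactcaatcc
Klrk1, chr6:129623865-129624114, minus strand: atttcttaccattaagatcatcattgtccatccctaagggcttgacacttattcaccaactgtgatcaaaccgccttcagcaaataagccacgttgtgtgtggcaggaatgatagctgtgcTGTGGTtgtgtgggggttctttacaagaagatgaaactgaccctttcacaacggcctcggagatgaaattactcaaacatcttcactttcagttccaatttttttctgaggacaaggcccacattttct
Klrb1c, chr6:128788713-128788742, minus strand: aggaaggaaagcTGTGGTcatggtgttttg
Klre1, chr6:129577972-129578001, plus strand: ttgtgtttaagcTGTGGTtccagagagtca
Counted back from the start, the motif began at position -176 and, in reverse complement, at -41 in Ncr1, at -129 in Klrk1, at -89 in Klrb1c and at -229 in Klre1. Counted from the other start of Ncr1 the same matches lie at -185 and -50, and the window of the other Klre1 start (chr6:129578036-129578285) held no match. Searched on both strands, the T-box core AGGTGT (11.8% of all windows), the STAT motif TTCNNNGAA (7.02%) and the ETS core CGGAAG (13.6%) had no match in the windows of these 5 genes. A match describes letters in this window only, and no binding was measured.

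Livers depleted of stellate cells held more RNA of all 7 genes than controls. The differences ran from 1.72 on the log2 scale for Klrb1c to 5.07 for Eomes, with Il2rb at 3.27 and Klrk1 at 2.93. In edgeR's quasi-likelihood test with group and sex in the model and Benjamini-Hochberg adjustment over 13831 genes, 7 of 7 passed an adjusted p of 0.05, all higher. With the replicate number as a block, which the labels do not tie to a shared animal or batch, 5 of 7 passed, where 16% of all tested genes were called higher and 28.1% in either direction. Control and depleted ranges did not overlap for 6 of the 7 genes, Klrb1c being the exception, where 16.5% of all tested genes lay wholly higher and 11.9% wholly lower. For comparison, 18.9% of all tested genes were called higher in this comparison, 15% lower and 33.9% in either direction. The median log2 fold change was 2.42 over the 7 genes and -0.03 over all tested genes. In whole-liver RNA, more cells of a type and more RNA per cell cannot be told apart. Eomes and Klre1 passed the low-count filter only through depleted livers, since no library of the other groups reached the filter's level of 0.247 CPM for them, and their direction was thereby fixed. Of the other 5 genes, 5 were called higher, with a median log2 fold change of 2.42.

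**Figure D1:**
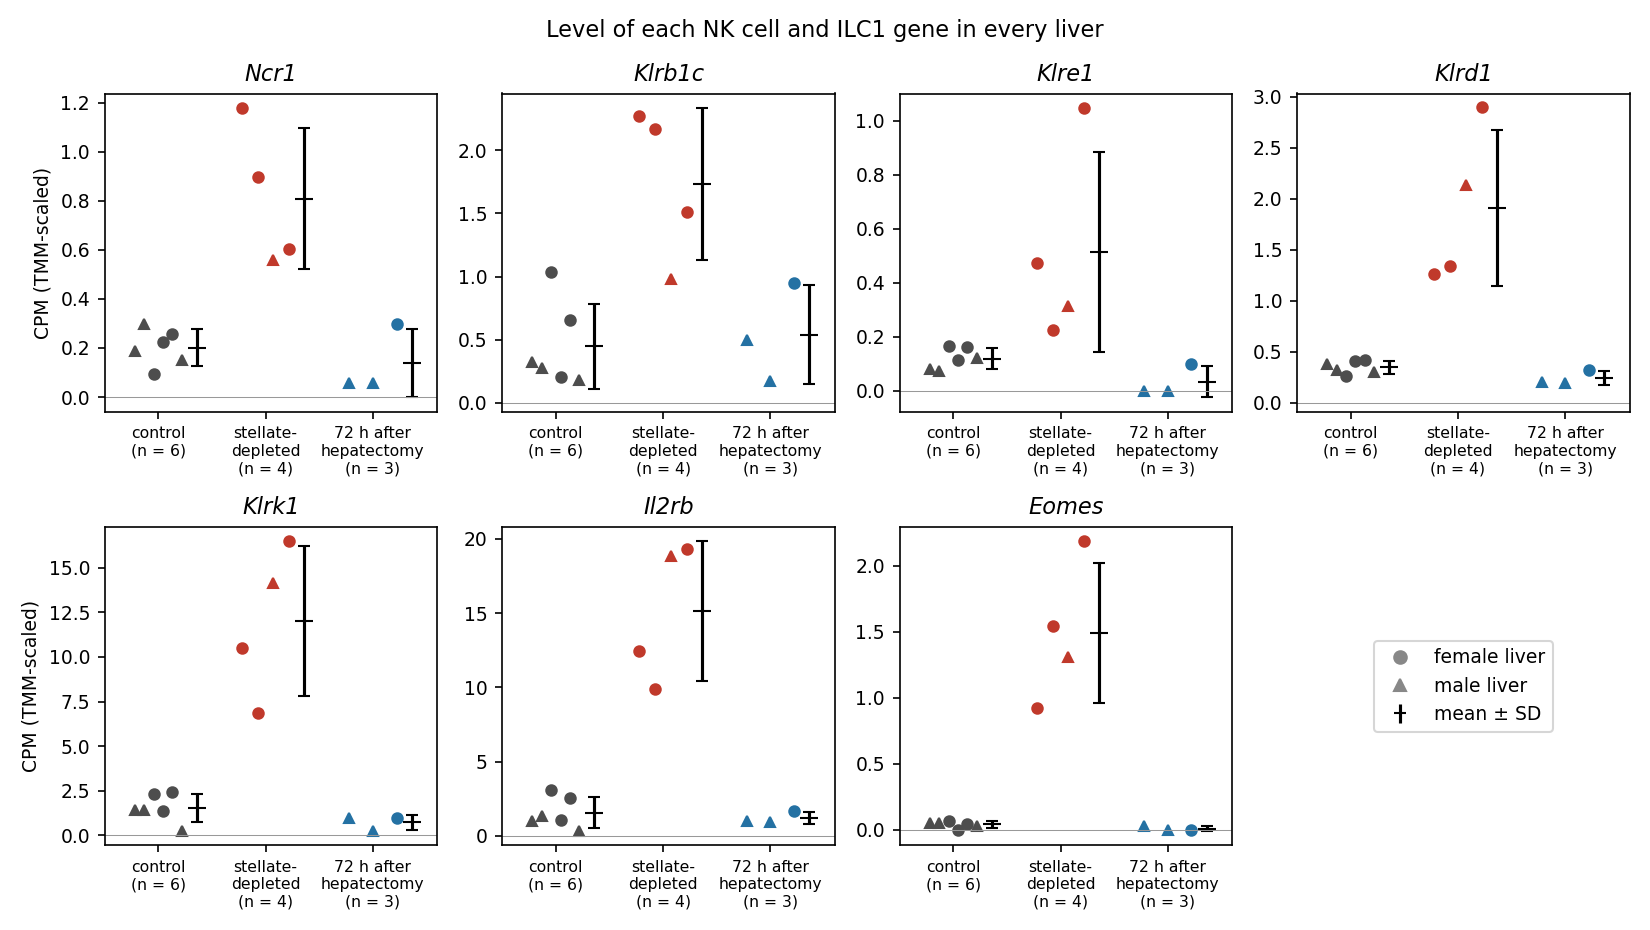
TMM-scaled CPM of each gene (y axes, linear, each with its own range) in the 6 control, 4 stellate-depleted and 3 hepatectomised livers. Circles are female and triangles male livers, and the bars give the mean and SD. Depleted livers lie above every control for all genes except Klrb1c, where control replicate 3 (1.04 CPM) exceeds depleted replicate 3 (0.978 CPM).

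Among the receptors shared by NK cells and ILC1, Ncr1 encodes NKp46, an activating receptor. Control livers held 0.0944 to 0.297 CPM of Ncr1 (median 0.206), from 4 to 12 reads per library. The depleted livers held 1.18, 0.896, 0.559 and 0.601 CPM in replicates 1 to 4, from 27 to 55 reads, and the hepatectomised livers 0.0588, 0.0561 and 0.299 CPM. Every depleted liver lay above every control, with replicates 1 and 2 the highest. The mean was 0.809 ± 0.288 CPM (SD, n = 4) against 0.202 ± 0.0735 CPM (n = 6), a log2 fold change of 1.79 ± 0.47 (SE, adjusted p = 0.0103 by edgeR). With the replicate block it did not pass (adjusted p = 0.098).

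Klrb1c encodes NK1.1, the lectin-like receptor by which NK cells and ILC1 are recognised in many mouse strains. Controls held 0.180 to 1.04 CPM of Klrb1c (median 0.297), depleted livers 2.27, 2.17, 0.978 and 1.52 CPM, and hepatectomised livers 0.500, 0.168 and 0.948 CPM. The ranges of depleted and control livers overlapped, because the female control replicate 3 lay above the male depleted replicate 3. The log2 fold change was 1.72 ± 0.43 (edgeR, adjusted p = 0.0075). Among female livers alone it was 1.65 and no longer passed (adjusted p = 0.0838).

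Klrk1 encodes NKG2D, the activating receptor for stress-induced ligands, which signals through the adaptors DAP10 (Hcst) and DAP12 (Tyrobp). Controls held 0.240 to 2.43 CPM of Klrk1 (median 1.43), with replicate 6 the lowest. Depleted livers held 10.5, 6.88, 14.2 and 16.5 CPM, and hepatectomised livers 0.941, 0.253 and 0.948 CPM. The lowest depleted liver was 2.83 times the highest control. The log2 fold change was 2.93 ± 0.47 (edgeR, adjusted p = 0.000494).

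Klrd1 encodes CD94, the invariant partner of the NKG2 chains in receptors for the non-classical class I molecule Qa-1. The controls lay close together, between 0.260 and 0.421 CPM of Klrd1 (median 0.348). The depleted livers held 1.26, 1.34, 2.13 and 2.9 CPM, and the hepatectomised livers 0.206, 0.197 and 0.324 CPM. The groups did not overlap between depleted and control livers, and replicates 3 and 4 were the highest. The log2 fold change was 2.42 ± 0.33 (edgeR, adjusted p = 0.00014). Klrc1, which encodes the inhibitory NKG2A chain that pairs with CD94, averaged 0.304 CPM in controls and 2.51 CPM in depleted livers, and rose by 3.10 ± 0.54 (log2, adjusted p = 0.000754).

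Klre1 encodes a lectin-like chain that pairs with Klri1 or Klri2. It was the faintest of the receptors, with 3 to 7 reads in each control (0.0741 to 0.165 CPM, median 0.116). Depleted livers held 0.471, 0.224, 0.314 and 1.05 CPM of Klre1, and replicate 4 stood well above the rest. In hepatectomised livers it had 0, 0 and 4 reads. The log2 fold change in depleted livers was 1.83 ± 0.56 (edgeR, adjusted p = 0.0229), and leaving out control replicate 3, 4 or 5 ended the call (adjusted p = 0.0515, 0.0543 and 0.0526), as did testing female livers alone (0.0882) and the replicate block (0.0764). Of its partners, named here after their values were seen, Klri1 rose by 3.40 ± 0.85 (adjusted p = 0.00777) and Klri2 had a log2 fold change of 1.66 ± 0.76 (adjusted p = 0.112). Klri1 passed the filter only through depleted livers. Klri2 was called in limma-voom (adjusted p = 0.0384), with only those groups in the fit (0.0452) and without control replicate 2 (2.36, adjusted p = 0.0249). The call of Klri1 rested on the male depleted liver, replicate 3, without which its adjusted p was 0.101.

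Il2rb encodes the beta chain through which IL-2 and IL-15 signal, and NK cells depend on it for survival. Controls held 0.330 to 3.12 CPM of Il2rb (median 1.20), depleted livers 12.5, 9.86, 18.9 and 19.3 CPM, and hepatectomised livers 1.03, 0.926 and 1.67 CPM. The lowest depleted liver was 3.16 times the highest control. The log2 fold change was 3.27 ± 0.43 (edgeR, adjusted p = 0.000126).

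Eomes encodes the T-box factor that separates conventional NK cells from liver ILC1 and that CD8 T cells also use. In controls it had 0 to 3 reads per library and 10 reads in all (0 to 0.0708 CPM, median 0.0481). Depleted livers held 0.921, 1.55, 1.31 and 2.18 CPM of Eomes, from 43 to 98 reads. The lowest depleted liver was 13 times the highest control, a wider gap than for any other of the 7 genes. The fitted log2 fold change was 5.07 ± 0.57 (edgeR, adjusted p = 3.67e-05). From pooled reads, the ratio to controls was 38.2, with an exact 95% interval of 20.5 to 80.6 that covers counting error only.

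Per length of transcript, on the TPM scale (counts divided by the deposited gene length and scaled to a common total), Il2rb was the most abundant of the 7 and Eomes the least. Mean levels in depleted livers were 14.3 TPM for Il2rb, 7.35 for Klrk1, 3.92 for Klrd1, 1.52 for Klrb1c, 1.37 for Ncr1, 1.04 for Klre1 and 0.937 for Eomes. Of the neighbours in that order, only Klrd1 and Klrb1c did not overlap between libraries (2.56 to 6.02 against 0.888 to 2.06 TPM). In controls the order of the means was the same, from 1.35 TPM for Il2rb to 0.0233 TPM for Eomes. There only Klre1 (0.132 to 0.312 TPM) and Eomes (0 to 0.0400 TPM) were neighbours without overlap.

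At 72 h after partial hepatectomy, none of the 7 genes was called different from controls (0 of 7, edgeR), where 8.42% of all tested genes were called (6.06% higher and 2.36% lower). None had an unadjusted p under 0.05 in the main edgeR fit or in DESeq2, and 1 did in limma-voom. In edgeR, 1 also did when scaling used library size alone and with the replicate block. Leaving out control replicate 4 or 6 or hepatectomised replicate 1 also gave 1, and leaving out hepatectomised replicate 3 gave 2. The hepatectomised and control ranges overlapped for every one of the 7, while they lay apart for 7.41% of all tested genes on the higher side and 6.25% on the lower. The log2 fold changes, with 95% confidence intervals, were -0.22 (-1.31 to 0.87) for Il2rb, -0.50 (-1.36 to 0.37) for Klrd1 and 0.44 (-0.61 to 1.5) for Klrb1c. For Klrk1 the value was -1.0 (-2.25 to 0.25) and for Ncr1 -0.56 (-1.80 to 0.68). Each of these intervals spans 0. Klre1 and Eomes were at the limit of detection: pooled over the 3 livers Klre1 had 4 reads, a ratio to controls of 0.26 (exact 95% interval 0.0663 to 0.739), and Eomes 1 read, a ratio of 0.188 (0.00434 to 1.32).

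Set directly against the hepatectomised livers, the depleted livers were higher for 6 of the 7 genes, where 13.3% of all tested genes were called higher, 10.1% lower and 23.4% in either direction. The log2 fold changes of the called genes ran from 2.35 ± 0.60 for Ncr1 (edgeR, adjusted p = 0.0139) through 2.92 for Klrd1, 3.49 for Il2rb, 3.50 for Klre1 and 3.93 for Klrk1. Eomes, with 1 read in the 3 hepatectomised livers against 285 in the depleted, had a pooled ratio of 203 (exact 95% interval 36.2 to 8050, counting error only). Klrb1c had 1.28 ± 0.54 and did not pass (adjusted p = 0.105). Eomes and Klre1 passed the low-count filter only through depleted livers, which fixed their direction here too. Of the other 5 genes, 4 were called higher, with a median log2 fold change of 2.92 over the 5. The CPM ranges did not overlap for any of the 7, Klrb1c included (lowest depleted liver 0.978, highest hepatectomised liver 0.948 CPM). Of all tested genes, 18.1% lay wholly higher in depleted livers and 15.9% wholly lower. Leaving out the male hepatectomised replicate 2 ended the call of Ncr1 (adjusted p = 0.0527), as did the replicate block (0.0547). Klre1 was not called with only those groups in the fit (0.0643). In female livers alone, with 1 hepatectomised liver, Klrd1, Klre1 and Ncr1 lost their calls, in a fit that assumes this lone liver to vary like the other groups. The median log2 fold change of the 7 genes was then 2.48. Both comparisons with depleted livers share those 4 libraries.

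**Figure D2:**
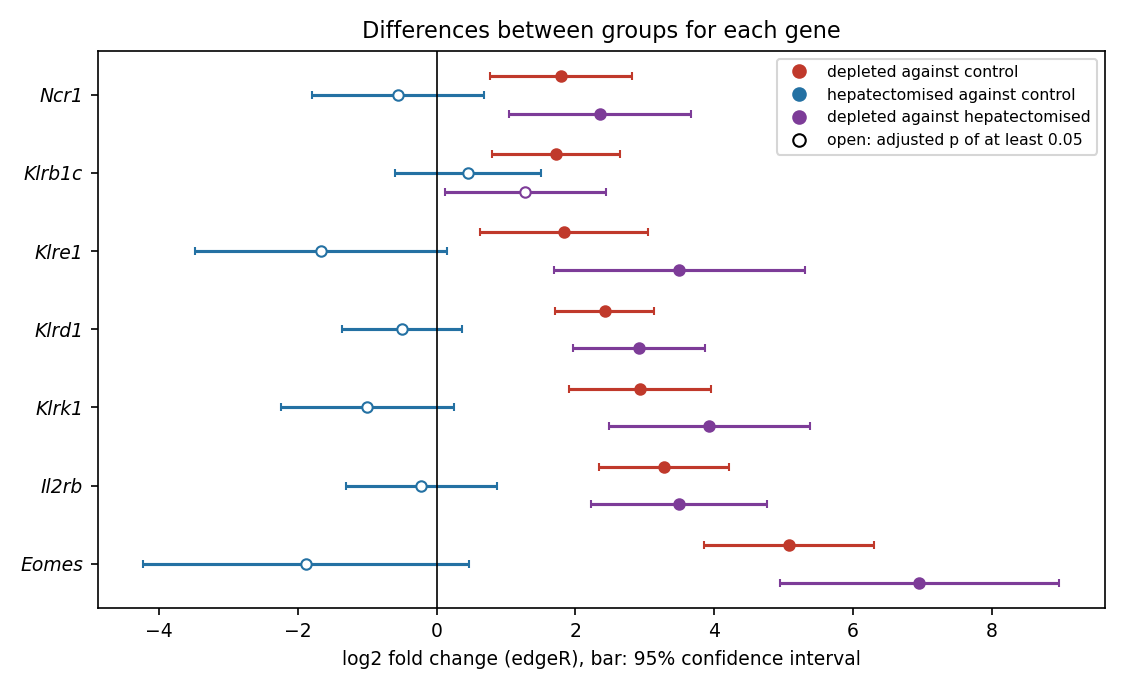
Log2 fold change of each gene from edgeR (x axis) in 3 comparisons of groups, with 95% confidence intervals. Filled points have an adjusted p under 0.05. All 7 red points (depleted against control) are filled and right of 0, all blue points (hepatectomised against control) are open, and Klrb1c is the open purple point (depleted against hepatectomised, 1.28).

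Sex entered the model because the groups were not balanced for it. None of the 7 genes was called different between male and female livers (0 of 7, edgeR, against 1.03% of all tested genes), and 1 of 7 had an unadjusted p under 0.05 in edgeR, in DESeq2 and in limma-voom. That gene was Klrb1c, at -1.25 ± 0.40 in male relative to female livers on the log2 scale (edgeR, adjusted p = 0.221). Its 3 male controls lay between 0.180 and 0.322 CPM and its 3 female controls between 0.202 and 1.04 CPM. With 1 male among the depleted livers, whether depletion acted alike in both sexes was not tested.

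The 4 depleted livers did not carry the 7 genes in one proportion. Ncr1 and Klrb1c were highest in replicates 1 and 2, whereas Klrk1, Il2rb and Klrd1 were highest in replicates 3 and 4. Klre1 was highest in replicates 4 and 1, and Eomes in replicates 4 and 2. The T cell markers were also highest in replicates 3 and 4: their sum was 50.4, 47.5, 101.3 and 107.4 CPM in replicates 1 to 4, and the sum of the CD3 genes Cd3d, Cd3e and Cd3g 15.0, 14.5, 31.6 and 41.9 CPM. So were the sums of pan-leukocyte markers (642, 536, 917 and 898 CPM), of Kupffer cell markers (641, 557, 940 and 1290 CPM) and of B cell markers (24.3, 24.3, 26.1 and 39.6 CPM). The monocyte and neutrophil sum was not (296, 219, 306 and 184 CPM). Across all 13 livers, after removing group means, Il2rb and Klrk1 were the closest pair (Pearson r = 0.885 on log2 CPM, n = 13), and Eomes and Ncr1 the most opposed (r = -0.424). Against the mean of the other genes, r was 0.783 for Klrk1, 0.769 for Il2rb, 0.65 for Klrb1c, 0.543 for Klre1, 0.374 for Klrd1, 0.239 for Eomes and 0.159 for Ncr1. Control replicate 6 was the lowest control for Klrk1, Il2rb, Klrb1c and the leukocyte gene Ptprc (2.94 CPM, next lowest 9.40 CPM). Without it Il2rb and Klrk1 had r = 0.733 (n = 12), and with sex removed as well as group, r = 0.861. The values for Ncr1 against the other genes were then 0.0856 and -0.10, and those for Klre1 0.741 and 0.304. These values describe libraries of unequal depth with few reads for the fainter genes, and the part of differing leukocyte content in them was not tested.

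**Figure D3:**
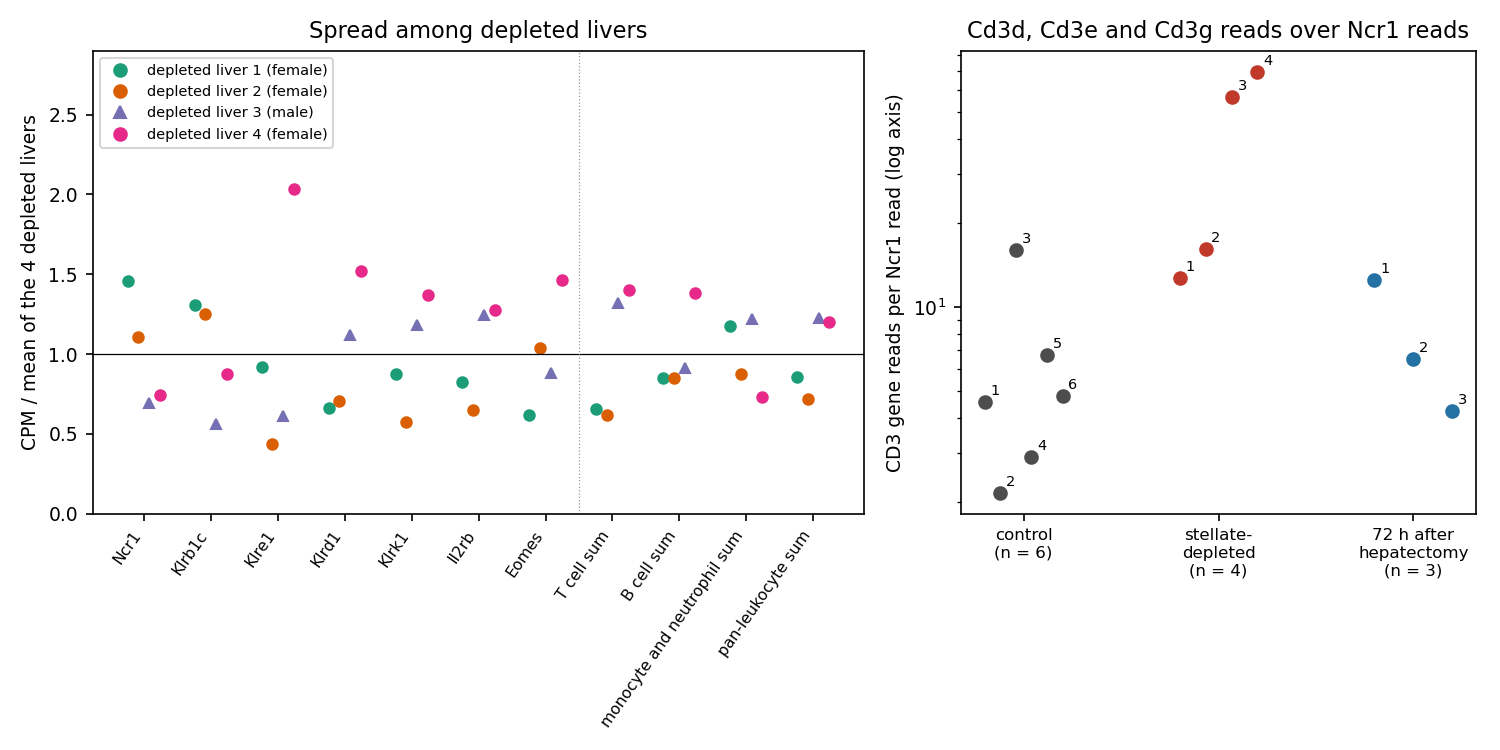
Left, the level of each gene and of 4 marker sums in each depleted liver, divided by the mean of the 4 (y axis, linear). Right, reads of Cd3d, Cd3e and Cd3g per read of Ncr1 in every liver (log axis, replicate numbers beside the points). Depleted replicates 1 and 2 lead for Ncr1 and Klrb1c, and replicates 3 and 4 lead for Klrk1, Il2rb, Klrd1 and the T cell sum.

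T cell, B cell, monocyte and neutrophil markers rose with the 7 genes in depleted livers, whereas Kupffer cell, ILC2 and ILC3, and gamma-delta T cell markers were mixed or not called. Of the 15 T cell markers listed, 12 are in the table, and 12 of 12 rose in depleted livers, although Cd5 and Cd8b1, named for this reason after their values were seen, passed the low-count filter only through those livers. Their sum was 2.74 to 5.78 CPM in controls, 47.5 to 107.4 CPM in depleted and 3.92 to 8.76 CPM in hepatectomised livers. Cd8a rose from 0.162 to 13.7 CPM (log2 6.36 ± 0.37, adjusted p = 6.21e-07) and Cd3e from 0.351 to 8.95 CPM (4.63 ± 0.51, adjusted p = 3.26e-05). The 6 B cell markers rose as well (3.64 to 7.34 CPM in controls, 24.3 to 39.6 CPM in depleted livers), as did 7 of 7 tested monocyte and neutrophil markers (2.52 to 9.42 against 184 to 306 CPM). Of 6 markers of Kupffer cells, the resident liver macrophages, 2 were called higher: Marco from 11.4 to 297.1 CPM and Timd4 from 11.1 to 49.3 CPM. Clec4f was 20.4 to 164.6 CPM in controls and 0.236, 2.17, 3.44 and 69.5 CPM in depleted replicates 1 to 4 (log2 -3.0 ± 1.26, adjusted p = 0.0872), so that depleted replicate 4 alone lay within the control range, and Vsig4 35.2 and 20.1 CPM (adjusted p = 0.287). These 4 Kupffer cell markers are named after their values were seen, and the count of 2 higher became 1 without depleted replicate 3 and with the replicate block. It became 3 without hepatectomised replicate 1 or 2 and with only those groups in the fit. In limma-voom, in females alone and without depleted replicate 4, 1 Kupffer cell marker was also called lower. Of the ILC2 and ILC3 markers, 1 of 4 tested was called higher (Il1rl1, which passed the filter only through depleted livers), and Il22 was at 0 in all livers. Of the gamma-delta T cell markers only Sox13 could be tested (log2 -0.19 ± 0.20, adjusted p = 0.492), with Il17a at 0 in all livers. The part of T cells and other leukocytes in the rise of the 7 genes was not tested.

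Ratios within each liver place the 7 genes beside these cells. Per read of Ncr1 there were 2.17 to 16 CD3 reads in controls (median 4.69) and 12.8 to 69.6 in depleted livers (median 36.4), with depleted replicates 2, 3 and 4 above every control and replicate 1 within their range. Ptprc, which encodes the pan-leukocyte antigen CD45, rose from 11.1 to 103.9 CPM (log2 3.21 ± 0.40, adjusted p = 0.000103). Per 1000 Ptprc reads, Ncr1 had 6.65 to 51 reads in controls (median 20.6) and 4.31 to 11.9 in depleted livers (median 8.60). Klrk1 had 81.6 to 164.5 (median 138) and 91.7 to 148.8 (median 107), and Il2rb 97.9 to 219 (median 109) and 125 to 174 (median 138), so both overlapped across their ranges. Eomes per 1000 Ptprc reads was 0 to 10.2 in controls (median 4.4) and 9.20 to 20.6 in depleted livers (median 14.9). Per 100 CD3 reads, Eomes was 0 to 7.69 in controls (median 4.43) and 4.14 to 10.7 in depleted livers (median 5.68), so these ranges overlapped. On that scale the control and depleted medians were 160 and 46.1 for Klrk1, and 154 and 63.8 for Il2rb. These ratios were not tested.

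**Figure D4:**
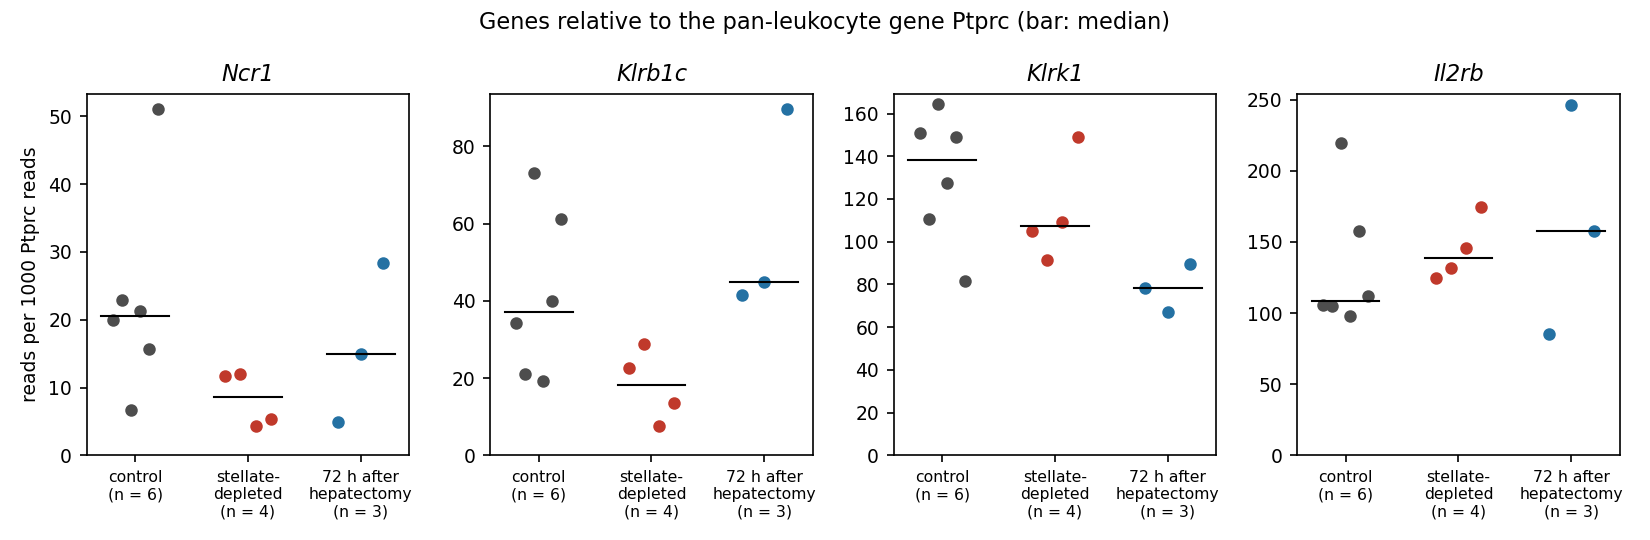
Reads of Ncr1, Klrb1c, Klrk1 and Il2rb per 1000 reads of Ptprc (y axes, linear, each from 0) in every liver, with the group median as a bar. Klrk1 and Il2rb overlap between control and depleted livers over most of their ranges, while the medians of Ncr1 are 20.6 in controls and 8.60 in depleted livers and those of Klrb1c 37.1 and 18.2.

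Other genes of NK cell and ILC1 biology were counted in lists. For some list genes no library of the other groups reached the filter's level, so they passed only through depleted livers and had to differ. These were 10 of 28 tested receptors, 2 of 11 adaptors and 1 of 18 transcription factors. Of the rest, they were 2 of 19 cytokine axis genes, 0 of 4 ligands and 3 of 12 effectors. Genes with fewer than 3 other libraries at that level also needed depleted livers to pass, and these counts leave them out. The counts and medians below are over tested genes only and describe them. Of 39 other surface receptors, 38 are in the table and 28 could be tested, and 24 of these rose in depleted livers, none fell and 4 did not pass (median log2 3.36). The largest rises among the called were in Tigit, an inhibitory receptor for nectin-like ligands (0.0273 to 4.34 CPM, log2 7.13 ± 0.69), and Slamf7 (0.606 to 21.8 CPM, 5.13 ± 0.53). Crtam (4.71), Klrg1 (4.63), Klra3 (4.55) and Fasl, the death ligand (4.15), came next. Of these genes, all but Slamf7 passed the filter only through depleted livers, which fixed their direction. Klra3, of the Ly49 family whose near-identical copies make read assignment uncertain, had 3 reads in all controls and 73 in depleted livers, a pooled ratio of 32.6 (exact 95% interval 10.7 to 162). The 2 integrins used to tell ILC1 from NK cells differed: Itga1 (CD49a), which liver endothelial and mesenchymal cells also express, was 24.2 CPM in controls and 30.3 in depleted livers (log2 0.26 ± 0.29, adjusted p = 0.532). Itga2 (CD49b) was called higher (0.0674 to 0.833 CPM, 3.46 ± 0.80, adjusted p = 0.00503), a call that was lost without the male depleted replicate 3 (adjusted p = 0.0724).

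Signalling adaptors rose in 10 of 11 tested cases (median 2.76). Sh2d1a (SAP, 5.04), Cd247 (the zeta chain of NKp46 and CD16 complexes, 4.74 ± 0.51), Sh2d1b1 (EAT-2, 4.53), Fcer1g (3.18), Tyrobp (DAP12, 2.77 ± 0.49) and Vav1 (2.76) had the largest log2 fold changes. Sh2d1a and Sh2d1b1 passed the filter only through depleted livers. Hcst, the DAP10 adaptor of NKG2D, named here after its value was seen, rose by 2.57 ± 0.48 (adjusted p = 0.00128). Zap70, the kinase that binds the zeta chain and also one of T cells, was 6.63 CPM in controls and 7.96 CPM in depleted livers, and was not called (0.31 ± 0.33, adjusted p = 0.502, named after its value was seen). Without depleted replicate 4 its sign turned (-0.14).

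Of 18 transcription factors of these lineages, 12 rose, none fell and 6 did not pass (median 1.59). Tbx21 (T-bet), which drives both NK cell and ILC1 programs and T helper cells, rose from 0.251 to 2.79 CPM (3.47 ± 0.42, adjusted p = 5.96e-05). Runx3, whose motif core appears in the windows printed above, rose from 0.272 to 3.99 CPM (3.81 ± 0.53, adjusted p = 0.000169). Gata3 (4.24), Ikzf3 (3.61), Irf8 (3.52) and Stat4 (3.29) also had large rises. Gata3 reached at most 0.112 CPM in controls and had a median of 0 in hepatectomised livers (highest 0.374 CPM). It therefore needed the depleted livers to pass the filter. Zfp683 (Hobit), which maintains mouse liver ILC1, was called higher (2.20 ± 0.70, adjusted p = 0.0276, from 0.0569 CPM) but passed the filter only through depleted livers. Leaving out control replicate 3, 4 or 5 or depleted replicate 3 ended that call (adjusted p = 0.0734, 0.0652, 0.0667 and 0.109), as did the replicate block (0.15).

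Along the cytokine axis, 14 of 19 tested genes rose (median 2.87) and none fell. Il2rg, the gamma chain that joins Il2rb in the IL-2 and IL-15 receptors, rose from 1.76 to 24.2 CPM (3.76 ± 0.45, adjusted p = 6.77e-05). Il15 itself, the cytokine that sustains NK cells, rose less, from 2.21 to 4.54 CPM (0.95 ± 0.28, adjusted p = 0.0187), and the call was lost without depleted replicate 1 (adjusted p = 0.0551) or 3 (0.132), in female livers alone (0.092) and with the replicate block (0.0868). Il15ra, which presents IL-15, was 38.3 CPM in controls and 30.9 CPM in depleted livers (-0.20 ± 0.28, adjusted p = 0.632, named after its value was seen). The largest rises were in Socs1, a feedback inhibitor of cytokine signalling (5.84), Il27 (4.73), the IL-18 receptor chains Il18rap (4.65) and Il18r1 (3.92), and Il12b (4.44). Il27 and Il12b passed the filter only through depleted livers.

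Of the ligand genes, 3 of 4 tested rose. H2-T23, which encodes Qa-1, the ligand of the CD94 heterodimers, went from 204 to 632 CPM (1.56 ± 0.28, adjusted p = 0.000867). The NKG2D ligands Ulbp1 (1.6 ± 0.46, adjusted p = 0.0162) and Raet1e (2.76 ± 0.93, adjusted p = 0.0373) were called, and Raet1d, named after its value was seen, was not (adjusted p = 0.881). Ulbp1 lost its call in female livers alone (adjusted p = 0.054) and with the replicate number as a block (0.073). Raet1e varied by liver, and its call was lost without depleted replicate 3 (adjusted p = 0.189) or 4 (0.153) or without any of control replicates 1, 2, 3 and 5 (0.0577 to 0.0762), and also with no low-count filter (0.0636). In female livers alone 1 of the 4 ligand genes was called.

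Of 14 cytotoxic effectors, 12 could be tested, and these 12 rose (median 5.02). Gzmk, Ifng and Ccl4 passed the filter only through depleted livers. Gzmm, at 0.179 CPM in controls and 0.212 CPM in depleted livers, and Gzmc, with 0 and 37 reads, did not pass it. Ccl4, Gzmm and Gzmc are named after their values were seen. Gzma (0.623 to 30.7 CPM, 5.60 ± 0.55), Gzmb (5.77), Ccl5 (5.27) and Prf1, the pore-forming perforin (0.144 to 4.88 CPM, 5.04 ± 0.61), had large log2 fold changes, and the smallest of the list was 1.24 ± 0.23 for Serpinb9, named after its value was seen. Ifng had 5 reads in all controls and 323 in depleted livers (6.12 ± 0.87). Gzmk had 0 reads in all controls and 524 in depleted livers, at least 234-fold higher against a floor of 3 reads over the control group. With Gzmk at that bound the median of the list stayed at 5.02.

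In hepatectomised livers 5 of the 92 tested genes of these lists were called different from controls, 5.43%, a smaller share than the 8.42% of all tested genes, so this count is no result about the lists. No adaptor, ligand or effector gene was called, and 0 of 12 T cell markers. The called genes were Itga2 (log2 3.92 ± 0.85, adjusted p = 0.0146), Tnfsf10, the death ligand TRAIL of liver ILC1 (-2.11 ± 0.47, adjusted p = 0.0175), Nfil3, a factor needed for NK cell development that hepatocytes also express (1.96 ± 0.41, adjusted p = 0.0136), Il18r1 (2.64 ± 0.54, adjusted p = 0.0123) and Jak3 (1.34 ± 0.18, adjusted p = 0.00154). Of these, Itga2 (adjusted p = 0.0598), Tnfsf10 (0.0831) and Il18r1 (0.138) lost their call without hepatectomised replicate 3, and Tnfsf10 (0.0825) and Nfil3 (0.0568) without replicate 2. With the replicate block Itga2 (0.0856) and Il18r1 (0.0627) were not called. In female livers alone, where 1 hepatectomised liver takes its spread from the other groups, Jak3 (0.164), Nfil3 (0.289), Itga2 (0.329) and Tnfsf10 (0.17) were not called. Among markers of other cells, 3 of 7 tested for monocytes and neutrophils were called higher (sum 2.52 to 9.42 CPM in controls, 18.5 to 31.4 CPM in hepatectomised livers). Proliferation markers were called higher in 6 of 6 cases (sum 2.91 to 36.7 CPM in controls, 59.9 to 408.9 CPM in hepatectomised livers), in 3 without hepatectomised replicate 2 or with only those groups in the fit, in 4 without control replicate 1 and in 0 among females alone. In depleted livers (41.7 to 112.6 CPM) 4 of 6 were called higher, and 1 among females alone. Of the B cell markers 2 of 6 were called lower, but 1 to 3 with a library left out (1 without any of control replicates 1, 2, 3, 5 and 6, depleted replicates 1 to 3 or hepatectomised replicates 1 and 2, and 3 without hepatectomised replicate 3) and 0 in females alone.

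**Figure D5:**
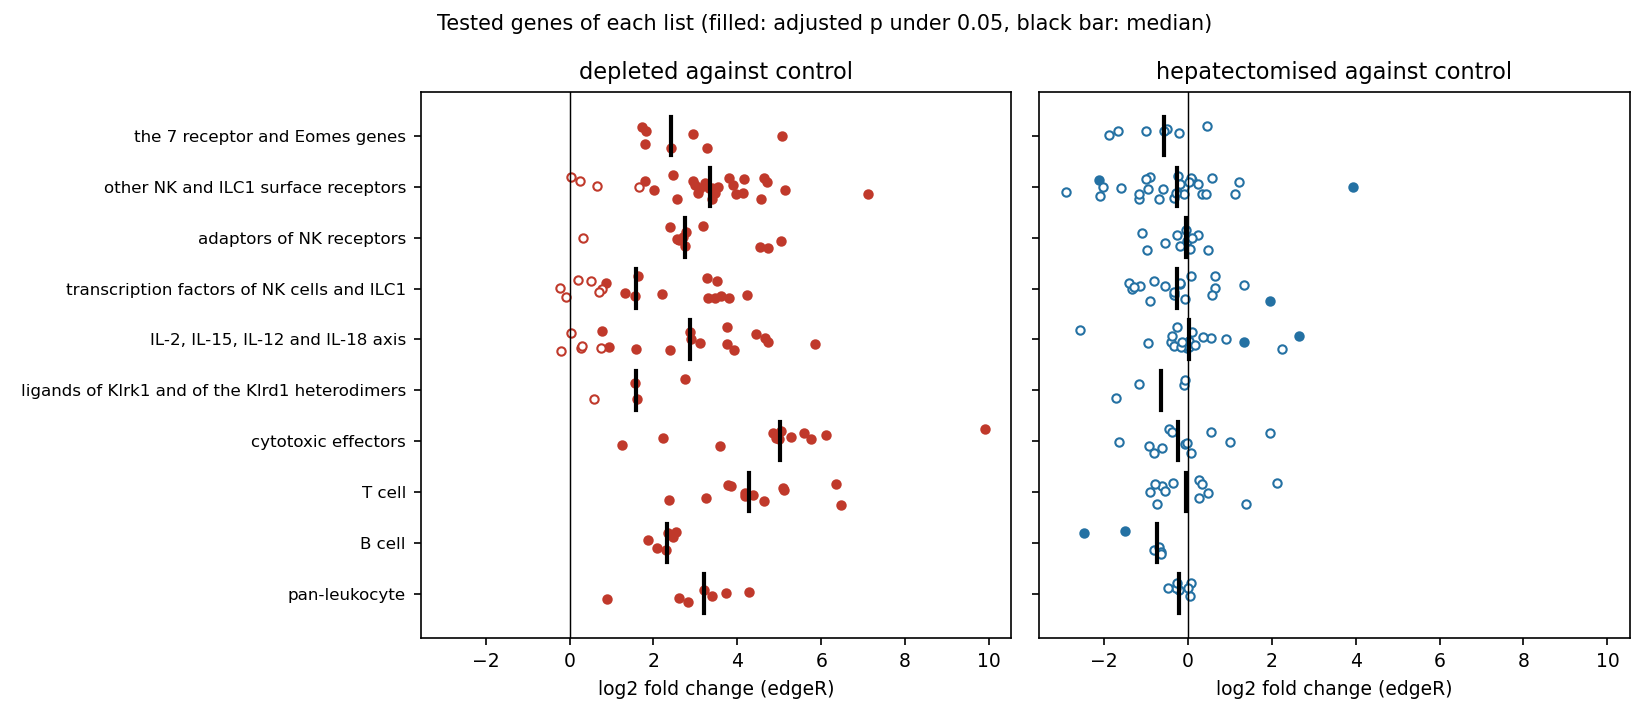
Log2 fold change (x axes, edgeR) of every tested gene in each list (rows), for depleted against control livers on the left and hepatectomised against control livers on the right. Filled points have an adjusted p under 0.05 and black bars are medians. The point near 10 among the effectors is Gzmk, whose fitted value depends on a prior count because controls have 0 reads. Medians on the left run from 1.58 (ligands) to 5.02 (effectors), and on the right most points are open.

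The genes whose level followed the 7 most closely were found by Pearson correlation with their mean over the 13 livers, after subtracting group means on the log2 CPM scale, among 11361 candidates. Among the closest were H2-T22 (r = 0.971), H2-T23 (0.955), H2-DMb2 (0.944), H2-Eb1 (0.930), Gzma (0.930), H2-Q1 (0.926) and Sp100 (0.925). Of these, H2-T22, H2-T23, H2-DMb2, H2-Eb1 and H2-Q1 are genes of the major histocompatibility complex, of which H2-T22, H2-T23 and H2-Q1 belong to a family of near-identical class I copies with uncertain read assignment. Without control replicate 6, r for H2-T22 was 0.959 and for Gzma 0.898. The libraries of these correlations share depth and group centring, and no test was made of them.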

How the data were processed

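Whole-liver total RNA (TRIzol) was made into stranded mRNA libraries (Illumina TruSeq) from 500 ng each and sequenced over 2 flowcell lanes, per the labels' protocols. The authors deposited raw read counts per gene for 13 libraries. The submitters' processing notes name STAR 2.7.1a, SAMtools 1.15.1, featureCounts 1.6.4 and the mm10 build, with no role, order or settings. The deposited table also gives a gene length, in bases, used only for TPM. Of the gene identifiers, 21741 matched GENCODE M21, and 99.94% of these overlapped the same gene in GRCm38.

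Counts were tested with edgeR 4.0.16 in R 4.3.3: filterByExpr (minimum count 10, at least 3 libraries) kept 13831 genes, libraries were scaled by TMM, and a robust quasi-likelihood fit held group and sex over all 13 libraries. Tests were two-sided, with Benjamini-Hochberg adjustment over all 13831 genes and a threshold of 0.05. CPM are TMM-scaled, floors are not, and correlations used log2 CPM with 2 as the prior count. Intervals and floors cover counting error only, since reads carried no molecular identifiers. The labels do not say whether libraries come from separate animals, although the pairs of libraries within a group differed beyond counting noise and none was treated as a duplicate. If libraries shared an animal, p-values would measure technical spread.

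The 7 genes, the lists and the marker genes were chosen with earlier results of these data known. All 7 genes are described. Of each list, at most 6 called genes with the largest log2 fold change are named, plus 13 fixed genes (Tbx21, Zfp683, Itga1, Itga2, Klrc1, Il15, Il2rg, Cd3e, Cd8a, Ptprc, Gzma, Prf1 and Ifng), and others are marked where named, except the markers Sox13, Il17a and Il22, which were also named after their values were seen. Motifs were searched in 250 bases before the start, leaving out the transcribed 50 bases of the RefSeq promoter windows. On simulated counts for depleted against control livers (13661 genes), the test recovered 46% of genes changed 2-fold and 92% of those changed 4-fold, with 5 false calls. For depleted against hepatectomised livers (13661 genes) it recovered 26% and 84%, with 11 false calls. Alternatives were the filter, scaling, DESeq2 1.42.0, limma-voom (limma 3.58.1), sex covariate, replicate block, libraries in the fit and each library left out. One of the 8 genes most alike to the 7 in level is not reported here.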

Additional observations from a re-analysis of the deposited data

How the results depend on the processing

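Over 580 alternative fits of the 7 genes in 4 comparisons, 554 kept the direction and the side of the threshold, 13 lost a call, 1 gained one and 12 turned sign. In depleted against control livers all 7 genes kept their direction in every alternative that could be fitted, and Eomes, Il2rb, Klrk1 and Klrd1 kept their call in all of them. Klre1 fell below the filter in that comparison without depleted replicate 1, 3 or 4 and with only those groups in the fit. The lists and list genes were put through the same settings, and the correlations recomputed without control replicate 6 or with sex removed, after the data had been seen. The labels do not say that the replicate numbers pair the livers, and several same-numbered livers differ in sex. After removing group and sex, the correlations of same-numbered livers averaged 0.12 (control and depleted), -0.05 (control and hepatectomised) and 0.16 (depleted and hepatectomised). Those of livers with other numbers averaged -0.02, 0.01 and -0.05. Whether same-numbered livers share a batch was not tested. From group means alone the 3 same-numbered control and hepatectomised pairs, which share sex, correlated at 0.11 to 0.52. With a replicate block, Ncr1 (adjusted p = 0.098) and Klre1 (0.0764) lost their calls against controls and Ncr1 (0.0547) against hepatectomised livers, so that 5 of 7 genes were called in each comparison. Against controls 28.1% of all tested genes were then called (16% higher), and against hepatectomised livers 22.9% (13.1% higher). The block also ended the calls of Zfp683 (0.15), Ulbp1 (0.073), Il15 (0.0868) and, in hepatectomised livers, of Itga2 (0.0856) and Il18r1 (0.0627). Klre1 against hepatectomised livers lost its call with only those groups in the fit (0.0643). In female livers alone, where the single hepatectomised liver is assumed to vary like the other groups, Klrd1, Klre1 and Ncr1 lost theirs. The median log2 fold change of the 7 genes was then 2.48. Klrb1c against hepatectomised livers was called when scaling used library size alone (log2 1.6, adjusted p = 0.0396). That scaling moved the median of all genes from -0.02 to -0.24 in hepatectomised against control livers. Among all genes it gave 2192 calls (626 higher, 1566 lower) in place of 1164 (838 higher, 326 lower), for depleted against control 2884 higher and 1471 lower in place of 2614 and 2078, and for depleted against hepatectomised 3102 higher and 610 lower in place of 1837 and 1399. For hepatectomised against control, DESeq2 gave 1939 calls, the replicate block 632 and female livers alone 90, and leaving out a library 483 (hepatectomised replicate 2) to 1458, with 692 and 742 without control replicates 1 and 2. For depleted against control, 4692 calls became 2726 in females alone and 2960 (without depleted replicate 3) to 4928 with a library left out. For depleted against hepatectomised, 3236 became 2105 with only those groups, 1263 in females alone, and 1709 (without depleted replicate 3) to 3850. For sex, 142 calls became 410 in DESeq2, 72 with the block and 84 (without control replicate 3) to 269 (without depleted replicate 4), with 90 without control replicate 1. The following values turned sign: the sex difference of Eomes, 0.04, ran from -0.18 to 0.39 with a library left out (-0.02, -0.0076, -0.18, -0.077, -0.061 and -0.069 where it was negative), that of Klrd1, -0.13, ran from -0.29 to 0.0091 with a library left out and was 0.057 in limma-voom, 0.32 with the block and 0.0055 and 0.0091 without depleted replicate 4 and hepatectomised replicate 3, that of Klrk1 was 0.074 with the block, and Ncr1 in hepatectomised against control livers, -0.56, was 0.64 in females alone. The causes were not tested. With 3 to 7 reads of Klre1 and 0 to 3 of Eomes in each control, depth limits what can be said of their baseline.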
